A study of Homo sapiens with 12 samples.

Results

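Resistance to erlotinib and knockdown of EGFR were compared as 2 changes, gene by gene, on all 12 expression arrays of the series. The first change, called here the ERC4 arm, is the log2 level in ERC4 cells minus that in HCC827 parental cells. The second, the EGFRsh arm, is the level in cells with an shRNA against EGFR (Esh9-1 in the labels) minus that in HCC827NT cells. The difference of effects is the first change minus the second. Of 11963 genes measured, 1549 changed at least 2-fold in 1 or both arms, at a limma adjusted p under 0.05 in that arm. They were sorted into genes that changed alike, in opposite directions, or 2-fold in 1 arm only.

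HCC827 is an established human lung adenocarcinoma line that depends on an activating mutation of EGFR. Parental cells and ERC4, labelled erlotinib resistant, grew with 5% FBS, and 3 arrays of each were deposited. NT cells carry a lentivirus for a non-target shRNA, the control for the knockdown. EGFRsh cells carry a lentivirus for an shRNA against EGFR, and both grew with 5% FBS and 5 ug/ml puromycin, again with 3 arrays each. ERC4 is 1 resistant line and Esh9-1 the only EGFR shRNA here. The time since transduction is not given in the sources used here. One label entry calls all 12 samples resistant to EGFR inhibitors, the parental ones included, so groups follow titles and descriptions. The labels do not say whether the 3 arrays of a group stem from 3 cultures or 1, and the p-values cover no more than the spread among those arrays.

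EGFR is a receptor tyrosine kinase that drives the RAS-MAPK and PI3K pathways and, in EGFR-mutant lung adenocarcinoma, keeps cells growing and alive. Erlotinib blocks the kinase, while an shRNA lowers the transcript and so the receptor itself. Resistant cells may keep the receptor, bypass it with another kinase or change cell state. One well known change of state is the epithelial-mesenchymal transition, in which junction proteins give way to vimentin and matrix proteins under transcription factors of the ZEB and SNAI families, repressors that bind E2 boxes in the promoters of epithelial genes.

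The values are RMA intensities, taken here to log2(value + 1). Array medians lay at 49.98 to 52.97 in the parental and ERC4 arrays and 141 to 143 in the NT and EGFRsh arrays. The arrays thus form 2 sets on different scales, so levels are given within a set and never compared across sets. The spread of log2 values also differed, with an SD of 1.83 to 1.96 in the first set and 2.24 to 2.27 in the second. Replicate arrays correlated at 0.992 or above. A gene was called readable in an arm where its higher group mean reached the median over genes of that set, a log2 level of 6.10 or 7.66. Hybridisation controls, spiked into each sample, changed by -1.56 in the ERC4 arm and 0.55 in the EGFRsh arm on the log2 scale. The 3′ minus 5′ signal of ACTB, a sign of RNA or cDNA quality, changed by -0.03 and 0.87, and that of GAPDH by -0.15 and 0.35. Their part in the results below was not tested. Of the markers of other cell types, 2 or 3 of 15 leukocyte genes, 1 or 2 of 17 fibroblast and endothelial genes and 2 to 7 of 18 hepatocyte genes reached the set median in any group. Epithelial markers (EPCAM, KRT7, KRT8, KRT18, KRT19) lay above the set median in every group, and CDH1 in every group but EGFRsh.

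The arms overlapped in part. At the adjusted p alone, 6902 genes were called in ERC4 (57.7%), 3453 higher (28.9%) and 3449 lower (28.8%). In EGFRsh 5966 were (49.9%), 3022 higher (25.3%) and 2944 lower (24.6%). At 2-fold, 753 (6.29%) and 1077 (9.0%) remained. In ERC4, 539 genes rose at least 2-fold (4.51% of genes tested) and 214 fell (1.79%). In EGFRsh, 585 rose (4.89%) and 492 fell (4.11%). Of these, 141 genes rose in both arms (1.18%) and 107 fell in both (0.894%). In opposite directions, 23 genes went up in ERC4 and down in EGFRsh (0.192%), and 10 did the reverse (0.0836%). A further 347 genes rose 2-fold in the ERC4 arm only (2.9%) and 91 fell there only (0.761%). The EGFRsh arm alone held 413 genes that rose (3.45%) and 356 that fell (2.98%). For these 1-arm classes the difference of effects was also called. Another 61 genes passed 2-fold in 1 arm without a called difference (0.51%), and 10414 passed in neither (87.1%). Since these calls chose the members, their sizes are a description. Across all genes the arms correlated with a Pearson r of 0.37 and a Spearman rho of 0.28, over 11963 genes that are not independent of each other and that within an arm share 6 arrays.

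**Figure D1:**
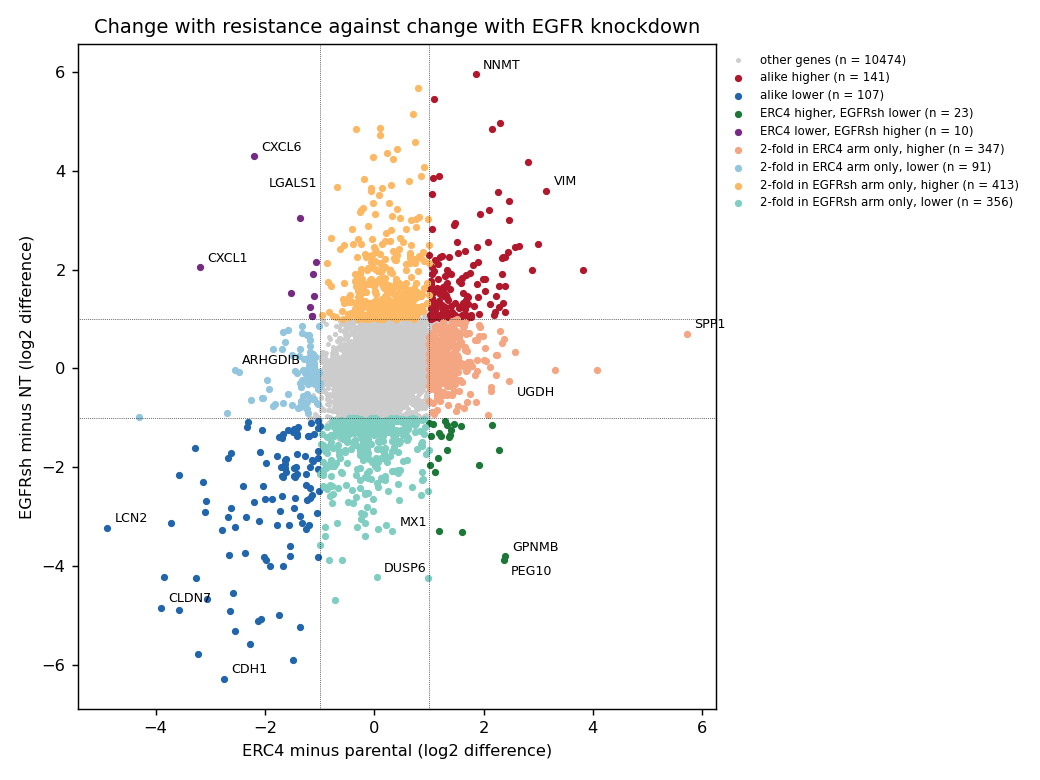
Log2 difference of each gene in ERC4 minus parental (x axis) against EGFRsh minus NT (y axis), with dotted lines at 2-fold and colours for the classes. The 141 genes that rose and the 107 that fell in both arms fill the upper right and lower left corners, while 23 and 10 genes lie in the opposite corners.

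The difference of effects was called for 5936 genes (49.6%), 3053 of them higher in the ERC4 arm (25.5%) and 2883 lower (24.1%). For 1295 genes (10.8%) it reached 2-fold. A call of the difference is therefore common, and its size matters more than its p-value. The word "only" in the 1-arm classes refers to the 2-fold line. Of the 347 genes that rose 2-fold only in ERC4, 175 also rose in EGFRsh by less and 55 fell by less. For the 91 that fell only in ERC4, those counts were 36 and 18. Of the 413 that rose only in EGFRsh, 197 rose in ERC4 by less and 64 fell by less. Of the 356 that fell only in EGFRsh, 144 fell in ERC4 by less and 91 rose by less. Some genes lay close to the line. DNAJC13 passed in ERC4 with a log2 difference of 1.00009 and TACC1 missed it with 0.999655, while in EGFRsh BRCC3 passed with -1.00067 and PTTG3P missed with 0.999885.

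EGFR itself, the target of drug and shRNA, moved in the EGFRsh arm. Its log2 level was 12.41, 12.34 and 12.40 in parental and 12.56, 12.70 and 12.52 in ERC4. In NT it was 13.47, 13.66 and 13.51, and in EGFRsh 12.16, 12.27 and 12.32. Neither pair of groups overlapped, which held for 60.5% of all genes in the ERC4 arm and 61.3% in the EGFRsh arm. Every gene of the alike and opposite classes below had groups without overlap in both arms. The 2-fold line and adjusted p in both arms chose those genes, so their lack of overlap is no separate evidence. The 2 changes of 0.21 and -1.30 differed by 1.51 ± 0.10 (SE; adjusted p = 3.5e-08), and 3 further readable probe sets gave differences of 2.82, 2.97 and 2.98. Another readable one gave -0.13.

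Genes of epithelial identity were among the genes that fell in both arms. The list holds regulators and also other genes of epithelial cells, such as membrane proteins. Of its 30 measured genes, 16 fell in both (0.894% of all genes did), 5 fell 2-fold in EGFRsh only and 1 in ERC4 only. Over the 30 genes the median change was -1.45 in ERC4 and -2.28 in EGFRsh, against -0.04 and -0.02 over all genes. This list and those below were chosen with earlier results of these data known. Their counts beside the share over all genes are therefore descriptions. The 16 fell by medians of 2.46 and 3.14 on the log2 scale. They include ESRP1, which sets epithelial splice forms, ST14, a membrane protease, RAB25, a GTPase of apical recycling, and EHF, an ETS transcription factor of epithelia. E-cadherin (CDH1), which ties epithelial cells together, and EPCAM fell with them.

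CDH1 lay at 10.21, 10.49 and 10.33 in parental and 7.51, 7.70 and 7.57 in ERC4. In the other set it lay at 12.67, 12.64 and 12.33 in NT and 6.38, 6.20 and 6.22 in EGFRsh. All 3 arrays of each perturbed group were below all 3 controls, a 6.73-fold fall in ERC4 and a 77.6-fold fall in EGFRsh. The changes differed by 3.53 ± 0.14 (adjusted p = 1.4e-10), so the fall was larger in EGFRsh. The other CDH1 probe set gave changes of -3.55 and -5.28. EPCAM fell from 10.27, 10.35 and 10.26 to 7.67, 7.72 and 7.58 in ERC4 and from 12.89, 12.95 and 12.89 to 8.17, 7.98 and 7.82 in EGFRsh, a difference of 2.28 ± 0.12 (adjusted p = 1.7e-09). SCNN1A, a sodium channel subunit of epithelia, fell 9.33-fold and 54.8-fold.

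Other epithelial genes fell by similar amounts in the arms. ITGB4, the integrin of hemidesmosomes, lay at 8.26, 8.14 and 8.11 in parental and 5.78, 5.70 and 5.80 in ERC4, and at 8.49, 8.39 and 8.67 in NT and 6.0, 6.24 and 6.14 in EGFRsh. Its changes of -2.41 and -2.39 had a difference of -0.02 ± 0.12, which was not called (adjusted p = 0.9). JUP, a plaque protein of desmosomes and adherens junctions, changed by -2.62 and -2.83 (adjusted p of the difference = 0.3). LAD1, a basement membrane filament protein, changed by -3.09 and -2.90 (0.14), and ESRP1 by -3.85 and -4.22 (0.13). RAB25 fell from 7.39, 7.30 and 7.32 to 4.23, 4.27 and 4.25 in ERC4, and from 8.32, 8.38 and 8.54 to 5.68, 5.82 and 5.71 in EGFRsh. RAB25, SH3YL1 and LCN2 fell more in ERC4, with differences of -0.41, -0.60 and -1.66, but with a pseudocount of 16 the difference turned to 0.0085 for RAB25 and 0.17 for SH3YL1. LCN2, an iron-binding secreted protein, had the largest fall of the leading alike genes in ERC4, from 13.00, 12.98 and 12.99 to 8.13, 8.13 and 8.07.

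Some squamous and secretory genes fell alike. Of 33 measured genes of the cornified envelope and squamous layers, 10 fell in both arms (0.894% of all genes did) and 5 in ERC4 only (0.761%). The list's median change was -0.76 in ERC4 and -0.20 in EGFRsh. The difference was called lower for 17 genes and higher for 7 (24.1% and 25.5% of all genes). SPRR1B, a cornified envelope precursor, fell by 3.57 in ERC4 and 4.89 in EGFRsh, and S100P by 3.06 and 4.66. Of 26 lung secretory and mucin genes, 6 fell in both arms (0.894% of all genes did) and 16 passed 2-fold in neither (87.1%). The 6 include MUC1 (-2.78 and -3.28) and AGR2 (-1.74 and -5.0), a chaperone for mucins. CEACAM6, an adhesion molecule of secretory epithelia, had the widest gap of the named alike genes, with a 2.8-fold fall in ERC4 and a 59.7-fold fall in EGFRsh, which differed by 4.42 ± 0.22 (adjusted p = 1.1e-09). For MUC1 the difference of 0.50 turned to -0.047 when the first set was stretched to match the other, and to -0.002 over the mean of its probe sets.

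Promoters of the genes that fell alike were searched for the E2 box, CAGGTG, the core that ZEB and SNAI repressors bind. RefSeq promoter windows (GRCh38.p14, 250 bases before to 50 after a start) were at hand for 78 of the 107 genes, 123 windows in all. The E2 box or its reverse, CACCTG, lay in 57 of them (46.3%). It lay in 18.9% of the 14057 windows of all measured genes and 20.6% of the 35116 windows in the table. The share was 11.8% for genes that rose alike, 32.7% for those that fell only in ERC4 and 25.6% for those that fell only in EGFRsh. The median GC content of the windows was 61.0% for genes that fell alike and 63.3% for all measured genes. These shares are descriptions, with no test, and a match is not a bound site. Of 15 windows at hand for genes of the epithelial identity list that fell in both arms, 9 held an E2 box. The 4 windows below were taken from windows with a box, after the values of their genes were seen, so each holds one by choice. They are printed in the direction of transcription with each E2 box in capitals. TMEM30B, a flippase subunit, changed by -2.56 and -5.32, and SPINT1, the inhibitor of ST14, by -2.36 and -3.74.
SH3YL1 (GRCh38.p14 chr2:264343-264642, - strand): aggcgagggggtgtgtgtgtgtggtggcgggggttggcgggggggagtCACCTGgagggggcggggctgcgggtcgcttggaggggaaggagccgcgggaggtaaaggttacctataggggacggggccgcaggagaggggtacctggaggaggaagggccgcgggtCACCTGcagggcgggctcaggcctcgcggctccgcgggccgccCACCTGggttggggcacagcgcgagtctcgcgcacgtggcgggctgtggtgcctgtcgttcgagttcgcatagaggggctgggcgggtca
RAB25 (GRCh38.p14 chr1:156060910-156061209, + strand): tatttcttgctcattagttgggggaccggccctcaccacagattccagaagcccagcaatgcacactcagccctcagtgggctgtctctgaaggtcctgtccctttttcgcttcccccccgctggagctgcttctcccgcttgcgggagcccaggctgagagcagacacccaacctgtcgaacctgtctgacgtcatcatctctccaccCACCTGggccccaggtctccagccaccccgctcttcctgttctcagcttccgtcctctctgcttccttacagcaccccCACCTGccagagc
TMEM30B (GRCh38.p14 chr14:61281289-61281588, - strand): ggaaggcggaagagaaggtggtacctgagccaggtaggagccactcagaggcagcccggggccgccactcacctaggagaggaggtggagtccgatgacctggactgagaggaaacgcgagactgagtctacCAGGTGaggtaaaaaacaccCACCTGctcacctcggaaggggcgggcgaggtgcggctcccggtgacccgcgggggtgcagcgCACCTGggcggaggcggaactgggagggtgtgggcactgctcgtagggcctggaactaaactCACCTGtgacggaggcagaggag
SPINT1 (GRCh38.p14 chr15:40844227-40844526, + strand): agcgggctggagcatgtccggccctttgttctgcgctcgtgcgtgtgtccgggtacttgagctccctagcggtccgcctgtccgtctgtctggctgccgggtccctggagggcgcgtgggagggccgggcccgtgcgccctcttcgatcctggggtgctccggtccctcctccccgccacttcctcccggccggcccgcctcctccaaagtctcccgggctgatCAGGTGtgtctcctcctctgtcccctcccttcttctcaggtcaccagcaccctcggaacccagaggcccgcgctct
SH3YL1 holds 3 E2 boxes, at 202, 83 and 40 bases before the start. RAB25 holds 1 at 41 bases before and 1 at 38 after it, TMEM30B holds 3 before it and 1 after, and SPINT1 holds 1 at 26 bases before it.

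Genes that rose in both arms (1.18% of all genes) included 4 of 32 mesenchymal cytoskeleton and adhesion genes and 5 of 47 matrix genes. VIM, the intermediate filament of mesenchymal cells, rose from 8.85, 8.88 and 8.67 in parental to 12.05, 11.86 and 11.95 in ERC4. In the other set it rose from 10.14, 10.30 and 10.07 in NT to 13.74, 13.80 and 13.73 in EGFRsh. The rises of 8.86-fold and 12.1-fold left a wide gap between groups on every array. Their difference of -0.45 ± 0.11 (adjusted p = 0.0051) turned to 0.17 when the sets were stretched to 1 spread. ZEB1, a repressor of epithelial genes, rose from 4.95, 4.65 and 4.94 to 6.32, 6.58 and 6.30 in ERC4 and from 6.42, 6.16 and 5.79 to 8.16, 7.81 and 7.72 in EGFRsh. The changes of 1.55 and 1.77 did not differ at the threshold (difference -0.22 ± 0.21, adjusted p = 0.42).

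**Figure D2:**
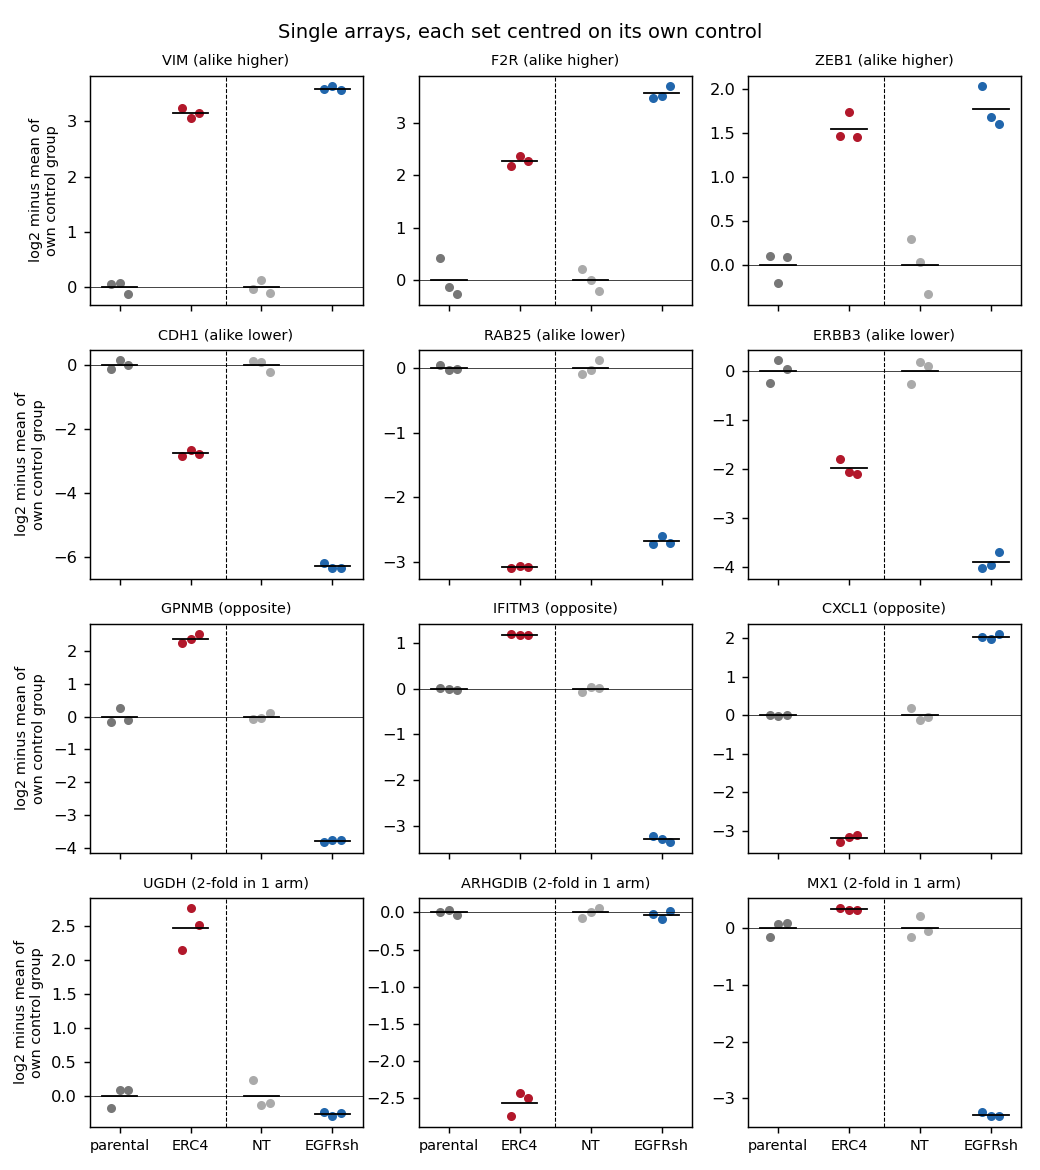
Log2 level of 12 genes on each array, minus the mean of the control group of its own set (parental or NT), with bars at group means; the dashed line parts the sets. VIM, F2R and ZEB1 rose in both sets, CDH1, RAB25 and ERBB3 fell in both, GPNMB, IFITM3 and CXCL1 moved in opposite directions, and UGDH, ARHGDIB and MX1 passed 2-fold in 1 set.

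Some genes of growth signalling were among those that rose alike, while others fell alike. Of 13 ERBB receptors and ligands, 1 rose and 2 fell in both arms (1.18% and 0.894% of all genes did). Of 65 other receptor kinases, ligands and related genes, 4 rose and 3 fell, and of 36 MAPK feedback and output genes 2 rose and 0 fell. F2R, the thrombin receptor PAR1, rose from 4.44, 3.90 and 3.75 to 6.20, 6.40 and 6.30 in ERC4 and from 4.69, 4.48 and 4.27 to 7.96, 8.0 and 8.18 in EGFRsh. That was 4.82-fold and 11.9-fold, a difference of -1.30 ± 0.21 (adjusted p = 0.00014). DUSP1, a phosphatase that switches off MAP kinases, rose from 6.14, 6.65 and 6.54 to 9.02, 9.12 and 9.11 in ERC4 and from 8.83, 8.95 and 8.99 to 11.34, 11.43 and 11.40 in EGFRsh, with no called difference (0.17 ± 0.15, adjusted p = 0.36). PLK2, a stress-responsive kinase, rose by 2.58 and 2.46 (adjusted p of the difference = 0.42). ZBTB18, a transcriptional repressor, rose by 2.44 and 2.35 (0.65), and IGFBP7, a secreted binder of insulin-like growth factors, by 2.35 and 2.25 (0.72). NRG1, the ligand of ERBB3, rose by 1.68 and 1.90 (0.13), while its receptor ERBB3 fell. For NRG1 another probe set was called lower in ERC4, at -1.0.

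ERBB3 lay at 6.40, 6.87 and 6.70 in parental and 4.86, 4.60 and 4.55 in ERC4, and at 8.67, 9.11 and 9.04 in NT and 4.92, 5.0 and 5.25 in EGFRsh. The groups did not overlap in either set, and the 3.96-fold and 14.8-fold falls differed by 1.90 ± 0.20 (adjusted p = 2.2e-06).

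Matrix, cytoskeleton and YAP target genes rose alike in part. Of 47 measured matrix genes, 5 rose in both arms (1.18% of all genes did) and 15 in EGFRsh only (3.45%). SPOCK1, a matrix proteoglycan, rose by 3.0 and 2.51, and THBS1, a matrix glycoprotein, by 2.30 and 4.96. The difference for THBS1 was -2.66 ± 0.14 (adjusted p = 1.7e-09), and its other readable probe sets gave 0.16, -1.08 and -3.12. Of 19 targets and partners of YAP, a transcriptional co-activator of growth, 6 rose in both arms (1.18% of all genes did) and 5 in EGFRsh only (3.45%). Another 1 rose in ERC4 only (2.9%), and none fell 2-fold. CCN1, a secreted matrix protein, rose by 1.90 and 2.14. The difference for CCN1 turned from -0.25 to 0.12 when the sets were stretched. CCN2, a close relative of CCN1, rose by 0.24 in ERC4 and 4.36 in EGFRsh (difference -4.12 ± 0.12, adjusted p = 9.3e-12), but both groups of the first set were below the readable level.

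Sharing a direction did not mean sharing a size. Among the 141 genes that rose alike, the difference was called for 82, with a larger rise in EGFRsh for 49 and in ERC4 for 33, and 59 had no called difference. Among the 107 that fell alike it was called for 80, 68 with a larger fall in EGFRsh and 12 in ERC4. With the parental and ERC4 values stretched to the spread of the other set, the counts were 28 and 54 for genes that rose and 49 and 21 for genes that fell. Which arm moved the genes that rose alike further thus depends on the scale of the sets. NNMT, a nicotinamide methyltransferase, rose by factors of 3.62 in ERC4 and 62.0 in EGFRsh, a difference of -4.10 ± 0.12 (adjusted p = 7.7e-12).

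Opposite changes, up with resistance and down with knockdown, marked 23 genes. GPNMB, a glycoprotein of melanosomes and lysosomes, lay at 4.48, 4.91 and 4.54 in parental and 6.90, 7.03 and 7.16 in ERC4. In the other set it lay at 9.79, 9.80 and 9.96 in NT and 6.01, 6.07 and 6.07 in EGFRsh. It rose 5.23-fold with resistance and fell 13.9-fold with knockdown, a difference of 6.18 ± 0.15 (adjusted p = 1.3e-12). PEG10, an imprinted gene derived from a retrotransposon, went from 8.17, 8.18 and 7.98 to 10.55, 10.47 and 10.43 in ERC4 and from 12.35, 12.21 and 12.04 to 8.25, 8.36 and 8.34 in EGFRsh. Its difference was 6.26 ± 0.12 (adjusted p = 2e-13), and its second probe set gave 4.93. Of 19 measured imprinted genes PEG10 was the one in this class, while TFPI2 and PHLDA2 fell 2-fold in ERC4 only.

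IFITM3, an interferon-induced membrane protein that blocks virus entry, was the interferon gene of this class. It lay at 9.36, 9.33 and 9.30 in parental and 10.53, 10.51 and 10.50 in ERC4, and at 11.78, 11.89 and 11.86 in NT and 8.61, 8.56 and 8.47 in EGFRsh. The groups were apart in both sets, with a difference of 4.48 ± 0.09 (adjusted p = 2e-13). Its probe set is of a type that can also bind close family members. TRAM1, part of the protein entry machinery of the endoplasmic reticulum, changed by 1.92 and -1.96, a difference of 3.89 ± 0.12, and by 1.93 and -0.65 on another probe set. CDC6, which loads helicases at replication origins, changed by 1.37 and -1.39, a difference of 2.77 ± 0.11.

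The class also held receptors and ligands. IL1R1, the interleukin-1 receptor, lay at 4.92, 4.74 and 5.0 in parental and 7.02, 7.14 and 6.97 in ERC4, and at 8.03, 7.92 and 8.02 in NT and 6.97, 6.64 and 6.94 in EGFRsh. IL6R, the receptor of interleukin-6, changed by 1.58 and -1.18, and LRP5, a co-receptor for WNT, by 1.03 and -1.37. EFNA1, a membrane ligand of EPH receptors, changed by 1.23 and -1.36. VEGFA, the angiogenic growth factor, changed by 1.0 and -1.11, at the 2-fold line. Its other probe sets gave 0.05, 0.66 and 0.20 in ERC4 and -1.90, -2.29 and -1.34 in EGFRsh, so they fell short of 2-fold in ERC4. PHLDA1, a gene induced by growth factors, changed by 1.07 and -1.14, while another of its probe sets gave -0.05 and -1.53. The remaining members were the tyrosine phosphatase PTP4A1 (1.39 and -1.34), the nuclear envelope protein SYNE2 (1.32 and -1.65), the nuclease LACTB2 (1.40 and -1.25), the lipid phosphatase PLPP3 (1.19 and -1.30), the microtubule-associated MTUS1 (1.17 and -1.81), the kinase PRKCH (1.33 and -1.15), LYSET (1.46 and -1.13) and the protocadherin PCDH7 (1.02 and -1.95).

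A few members of this class rest on dim or conflicting probe sets. KRT20, a keratin of intestinal epithelium, changed by 2.28 and -1.65, and HKDC1, a hexokinase relative, by 1.30 and -1.07, both below the readable level in the EGFRsh arm. LAMP3, a lysosomal membrane protein of alveolar cells, changed by 1.11 and -2.10 and was below it in the ERC4 arm. KRT4, a squamous keratin, changed by 1.60 and -3.30, but its other probe set gave -0.28 and -0.38. Over the whole class, 24 of 25 other probe sets had the same sign of change in EGFRsh and 23 of 25 in ERC4, and all 25 had the same sign of the difference. For genes past 2-fold in neither arm, 67.0% of other probe sets had the same sign of the difference. The share was 76.7% for genes that rose alike and 61.5% for those that fell alike. For genes that fell alike, 98.1% had the same sign of change in ERC4 and 96.2% in EGFRsh, and for those that rose alike 82.5% and 87.4%.

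The reverse class of 10 genes held chemokines that draw neutrophils. CXCL1 lay at 9.05, 9.03 and 9.07 in parental and 5.75, 5.89 and 5.94 in ERC4, and at 9.31, 9.0 and 9.08 in NT and 11.18, 11.12 and 11.24 in EGFRsh. It fell 9.14-fold with resistance and rose 4.12-fold with knockdown, a difference of -5.24 ± 0.12 (adjusted p = 7.5e-13). CXCL6 went from 6.78, 7.39 and 7.06 to 5.04, 4.66 and 4.92 in ERC4 and from 5.25, 5.14 and 4.90 to 9.32, 9.36 and 9.49 in EGFRsh, a difference of -6.49 ± 0.20 (adjusted p = 1.1e-11). CXCL8, interleukin-8, went from 7.69, 8.01 and 7.76 to 6.40, 6.56 and 6.43 and from 10.50, 10.15 and 10.49 to 13.30, 13.52 and 13.43, a difference of -4.40 ± 0.15. Its second probe set gave -3.33. In each of these genes, as in all 10 of the class, the arrays of ERC4 lay below all parental arrays and those of EGFRsh above all NT arrays. The calls that chose the class already favour such a separation, so it adds no evidence.

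Of 31 measured chemokines, cytokines and their receptors, 3 were in this reverse class (0.0836% of all genes) and 8 more rose in EGFRsh only (3.45%). IL6 was the 1 gene that rose alike (1.45 and 2.91). CXCL5 (-0.55 and 1.73), CXCL3 (-0.79 and 1.67) and interleukin-1 alpha (IL1A, -0.80 and 2.63) also fell in ERC4, by less than 2-fold, though CXCL3 and IL1A were below the readable level there. CX3CL1, a membrane-bound chemokine, went the other way in EGFRsh (-0.24 and -3.05). The promoters of these genes were searched for a site of NF-kB, the transcription factor of inflammation, spelled GGGA, any base and TTTCC, on both strands. Of the 12 windows of the reverse class, 2 held it, those of CXCL6 and CXCL1, against 0.55% of the windows of all measured genes. No window of the 25 in the opposite class did, which says only that these letters are not there. Both windows are printed with the site in capitals.
CXCL6 (GRCh38.p14 chr4:73836428-73836727, + strand): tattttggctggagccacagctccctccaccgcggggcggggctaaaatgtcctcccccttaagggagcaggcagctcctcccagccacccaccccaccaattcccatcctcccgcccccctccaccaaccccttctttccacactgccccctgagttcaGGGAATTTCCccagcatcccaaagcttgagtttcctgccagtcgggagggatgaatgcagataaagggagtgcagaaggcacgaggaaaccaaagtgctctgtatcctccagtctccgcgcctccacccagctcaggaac
CXCL1 (GRCh38.p14 chr4:73869143-73869442, + strand): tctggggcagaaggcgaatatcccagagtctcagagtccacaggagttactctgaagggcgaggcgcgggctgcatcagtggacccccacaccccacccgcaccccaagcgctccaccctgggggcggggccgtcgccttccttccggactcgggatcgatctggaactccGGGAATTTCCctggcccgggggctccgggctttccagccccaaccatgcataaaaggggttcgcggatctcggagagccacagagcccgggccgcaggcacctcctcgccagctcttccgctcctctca
The site has the same letters in both, 90 bases before the start of CXCL6 and 79 before that of CXCL1.

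The other 7 genes of the reverse class include surface proteins of mesenchymal and endothelial cells. NT5E (CD73), which makes adenosine outside cells, went from 6.93, 7.28 and 6.80 to 5.28, 5.74 and 5.45 in ERC4 and from 10.29, 10.28 and 10.12 to 11.78, 11.75 and 11.77 in EGFRsh, a difference of -3.05 ± 0.17. ENG, a co-receptor of TGF-beta, changed by -1.07 and 2.15, though its other probe set gave only -0.24 and 0.30. EFNB2, a ligand of EPH receptors, changed by -1.13 and 1.91, but its other probe set, at -0.58 and 1.43, fell short of 2-fold in ERC4. SERPINA1, the protease inhibitor alpha-1 antitrypsin, changed by -1.17 and 1.24, and by -1.46 and 1.27 on another probe set. The basement membrane proteoglycan HSPG2 (-1.10 and 1.47), the ion transport regulator FXYD5 (-1.15 and 1.06) and RGS10, a brake on G protein signals (-1.14 and 1.05), complete the class. ENG is also on the list of fibroblast and endothelial markers, of which 1 gene fell 2-fold in ERC4 and 2 rose in EGFRsh, and the log2 of the summed level of that list was 9.25 to 9.32 in ERC4 against 9.63 to 9.70 in parental and 10.7 to 10.8 in EGFRsh against 10.5 to 10.6 in NT. The part of such cells in the result was not tested.

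In the ERC4 arm only, 347 genes rose and 91 fell. UGDH, the enzyme that makes UDP-glucuronate, lay at 7.16, 7.43 and 7.42 in parental and 9.49, 10.09 and 9.84 in ERC4. In NT it lay at 10.14, 9.77 and 9.79 and in EGFRsh at 9.67, 9.60 and 9.66, so EGFRsh lay just below NT on every array. The 5.54-fold rise stood against a change of -0.26 (95% interval -0.55 to 0.03), a difference of 2.73 ± 0.19 (adjusted p = 3.8e-08). PNMA2, a neuronal paraneoplastic antigen, changed by 2.22 and -0.14. DAPK1, a death-associated kinase, changed by 1.86 and -0.68, ADM, a vasodilator peptide, by 1.63 and -0.79, and MAGT1, a magnesium transporter, by 2.13 and -0.47. These 3 genes fell in EGFRsh by less than 2-fold, though another probe set of MAGT1 was called higher there. Another probe set of DAPK1 gave 1.25 and -1.07, past 2-fold in both arms but below the readable level in EGFRsh.

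Some secreted proteins, plasma proteins of the liver among them, rose with resistance while dim in the other set. SPP1, osteopontin, lay at 4.28, 4.45 and 4.51 in parental and 10.31, 10.11 and 9.99 in ERC4, a 52.9-fold rise. In NT it lay at 4.49, 4.40 and 4.57 and in EGFRsh at 5.21, 5.16 and 5.21, below the readable level. FGG, a fibrinogen chain, lay at 6.39, 6.60 and 6.35 in parental and 10.56, 10.52 and 10.47 in ERC4. Albumin (ALB) rose by 3.30 and RBP4, the carrier of retinol, by 2.03, and both were likewise below the readable level in the EGFRsh arm. The other ALB probe sets, both dim, gave -0.12 and 0.34 in ERC4. FGB, the beta chain of fibrinogen, rose alike in both arms (2.40 and 2.26, adjusted p of the difference = 0.43). Of 18 hepatocyte marker genes 5 were called higher and 9 lower in ERC4, with a median of -0.26. Of 39 complement, coagulation and plasma protein genes 11 were called higher there and 19 lower, with a median of -0.17. Among all genes 28.9% were called higher in ERC4 and 28.8% lower. ALB, FGG and FGB are on the hepatocyte marker list, for which the log2 of the summed level was 11.8 to 11.9 in ERC4 against 10.2 to 10.3 in parental. Of its 18 genes 7 reached the set median in ERC4 and 6 in parental, and the part of such cells was not tested.

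Some mitosis genes rose 2-fold in ERC4. Of 39 measured mitosis genes, 7 rose 2-fold in ERC4 only (2.9% of all genes did), 1 in EGFRsh only and 4 in 1 arm without a called difference. The difference was called higher for 19 and lower for 4 (25.5% and 24.1% of all genes), with a median of 0.28. After quantile normalization the counts were 12 and 9, with a median of 0.09. KIF23, a motor of cytokinesis, changed by 1.54 and 0.23, TTK, a spindle checkpoint kinase, by 1.31 and 0.20 and KIF4A, a chromosome motor, by 1.10 and 0.01. DNA replication genes parted more. Of 44, the difference was called higher in 33 and lower in 3 (25.5% and 24.1% of all genes), with medians of 0.27 in ERC4 and -0.31 in EGFRsh. MCM2, part of the replicative helicase, lay at 9.72, 9.60 and 9.75 in parental and 10.07, 10.09 and 10.03 in ERC4, and at 11.86, 11.98 and 11.88 in NT and 10.60, 10.58 and 10.58 in EGFRsh. Its small rise and 2.5-fold fall differed by 1.69 ± 0.09 (adjusted p = 2.4e-09). MCM7 changed by 0.06 and -1.46, and RFC5, a clamp loader subunit, by 0.07 and -1.89, with another RFC5 probe set called the other way in EGFRsh. RRM2, the ribonucleotide reductase subunit, fell in both arms, by 0.64 and 1.31. POLA1, the catalytic subunit of primase-polymerase alpha, ran against this trend, since it changed by -0.26 and 3.17.

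Cholesterol synthesis genes also had higher changes in ERC4 than in EGFRsh. Of 17 cholesterol synthesis genes the difference was called for 13, each of them higher in the ERC4 arm (25.5% of all genes were). DHCR7, which makes the last step to cholesterol, lay at 7.83, 8.01 and 7.85 in parental and 8.76, 9.11 and 9.10 in ERC4, and at 10.48, 10.37 and 10.42 in NT and 9.45, 9.51 and 9.55 in EGFRsh. The difference was 2.01 ± 0.13 (adjusted p = 1.5e-08). HMGCS1, the synthase before the rate-limiting step, changed by 0.44 and -2.11, though its other probe set was called higher in EGFRsh, and INSIG1, which holds back sterol synthesis, by 0.47 and -1.05. Of 28 fatty acid and lipid genes, 4 fell and 2 rose 2-fold in EGFRsh only (2.98% and 3.45% of all genes did). Another 1 rose in both arms (1.18%), and the list medians were -0.23 in ERC4 and 0.04 in EGFRsh. SCD, the stearoyl desaturase, fell by 0.91 and 3.21, and FASN, fatty acid synthase, by 0.50 and 1.496. Of 33 lysosome and melanosome genes, 4 rose 2-fold in ERC4 only (2.9% of all genes did), such as NPC1, a lysosomal cholesterol exporter (1.42 and -0.27), and NEU1, a sialidase (1.05 and -0.88).

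Genes that fell 2-fold in ERC4 only include ARHGDIB and RAC2. ARHGDIB lay at 9.10, 9.13 and 9.06 in parental and 6.35, 6.67 and 6.60 in ERC4. It lay at 11.20, 11.28 and 11.32 in NT and 11.25, 11.17 and 11.28 in EGFRsh, where the groups overlapped. The 5.89-fold fall stood against a change of -0.03 (95% interval -0.20 to 0.14), a difference of -2.53 ± 0.11 (adjusted p = 4e-10). RAC2, a small GTPase, went from 9.39, 9.30 and 9.42 to 8.07, 8.07 and 7.97 in ERC4 and from 10.78, 10.83 and 10.86 to 11.78, 11.64 and 11.63 in EGFRsh. The integrin ITGA3 (-1.32 and 0.71), NQO1, a target of NRF2 (-1.19 and 0.67), and IER3, an early response gene (-1.02 and 0.87), likewise fell in ERC4 and rose by less than 2-fold in EGFRsh. CRABP2, a carrier of retinoic acid, fell in both (-2.70 and -0.91). The calgranulins S100A8 and S100A9 fell by 2.48 and 4.31 in ERC4, but in the EGFRsh arm, where they changed by -0.08 and -0.97, both were below the readable level.

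In the EGFRsh arm only, 413 genes rose and 356 fell. Interferon genes were the most numerous group that fell. Of 43 measured interferon-stimulated genes, 22 fell 2-fold in EGFRsh only (2.98% of all genes did), 4 fell in both arms and 1 was in the opposite class. The difference was called higher in 32 and lower in 3 (25.5% and 24.1% of all genes), with a list median of 0.08 in ERC4 and -1.496 in EGFRsh. The 22 changed in ERC4 by -1.0 to 1.0, with a median of 0.07, and in EGFRsh by -4.25 to -1.05. The class itself sets these bounds, under 2-fold in ERC4 and at least 2-fold down in EGFRsh, so they are no result. MX1, a GTPase against influenza, lay at 6.68, 6.89 and 6.91 in parental and 7.18, 7.15 and 7.15 in ERC4, and at 11.01, 11.38 and 11.12 in NT and 7.94, 7.86 and 7.85 in EGFRsh. It rose 1.26-fold and fell 9.78-fold, a difference of 3.62 ± 0.13 (adjusted p = 4.4e-11). In parental MX1 lay near the readable level of its set, 6.10, so a fall had less room to show in ERC4. PLAAT4, a phospholipase induced by retinoids and interferon, went from 9.79, 9.74 and 9.71 to 10.62, 10.72 and 10.83 in ERC4 and from 12.30, 12.42 and 12.46 to 8.40, 7.89 and 8.15 in EGFRsh, a difference of 5.22 ± 0.15 (adjusted p = 7.4e-12). IFITM1 changed by 0.85 and -2.56 and PLSCR1, a phospholipid scramblase, by -0.20 and -2.95. Since the control of this arm carries a lentivirus too, the change is one between 2 transduced lines.

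Interferon genes that went other ways were few. GBP1, a GTPase induced by interferon gamma, rose in both arms (2.40 and 1.67), and GBP2 rose in EGFRsh (0.14 and 2.52). IFI27 fell in both (-1.90 and -3.99), as did IFI44 (-1.63 and -1.86) and IFI44L (-1.57 and -1.25). Of 20 antigen presentation genes, 1 passed 2-fold in either arm, HLA-DMA, which fell in EGFRsh and was below the readable level in both. Promoter windows were at hand for 15 of the 22 genes that fell in EGFRsh only, 20 windows in all. The interferon response element, searched as GAAA, any 2 bases and GAAA, on both strands, lay in 13 of them (65.0%), against 3.02% of the windows of all measured genes. The list was made of genes known to respond to interferon. These 3 windows were taken from the 13 that hold the element, after their values were seen, and carry it in capitals.
MX1 (GRCh38.p14 chr21:41420308-41420607, + strand): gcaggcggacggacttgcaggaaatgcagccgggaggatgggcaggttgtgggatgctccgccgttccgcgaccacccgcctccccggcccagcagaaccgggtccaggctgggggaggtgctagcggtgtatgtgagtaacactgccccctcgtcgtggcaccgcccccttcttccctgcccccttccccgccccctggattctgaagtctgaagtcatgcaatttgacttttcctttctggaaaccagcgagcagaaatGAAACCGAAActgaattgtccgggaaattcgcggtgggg
IFITM1 (GRCh38.p14 chr11:313790-314089, + strand): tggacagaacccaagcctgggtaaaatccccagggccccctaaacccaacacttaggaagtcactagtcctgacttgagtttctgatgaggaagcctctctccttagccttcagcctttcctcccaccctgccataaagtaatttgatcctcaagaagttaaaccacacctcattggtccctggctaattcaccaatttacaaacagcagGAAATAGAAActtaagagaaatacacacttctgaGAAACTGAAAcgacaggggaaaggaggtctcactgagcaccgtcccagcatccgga
PLSCR1 (GRCh38.p14 chr3:146544558-146544857, - strand): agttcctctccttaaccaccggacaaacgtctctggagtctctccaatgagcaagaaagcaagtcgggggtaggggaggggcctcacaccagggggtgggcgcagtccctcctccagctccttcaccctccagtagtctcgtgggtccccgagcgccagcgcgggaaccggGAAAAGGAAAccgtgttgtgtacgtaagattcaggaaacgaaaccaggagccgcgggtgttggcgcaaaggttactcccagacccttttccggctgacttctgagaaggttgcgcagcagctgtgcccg
The element lies 12 bases after the start in MX1, 40 and 6 before it in IFITM1 and 79 before it in PLSCR1.

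A few MAPK feedback and ERBB genes changed 2-fold in 1 arm. DUSP6, a phosphatase of ERK that rises with ERK activity, lay at 6.52, 6.36 and 6.43 in parental and 6.23, 6.56 and 6.66 in ERC4, which overlapped. In NT it lay at 11.92, 11.85 and 11.95 and in EGFRsh at 7.81, 7.62 and 7.60, an 18.8-fold fall against a change of 0.05 (95% interval -0.17 to 0.26). Parental and ERC4 both lay near the readable level of their set, 6.10, while NT lay far above its own, 7.66. A fall of DUSP6 therefore had less room to show in ERC4 than in EGFRsh. The difference was 4.28 ± 0.14 (adjusted p = 2.1e-11), and the other probe sets gave 4.40 and 3.34, the last one called lower in ERC4, at -0.43. Of 36 MAPK feedback and output genes, 3 fell 2-fold in EGFRsh only, DUSP6, SPRY1 and TRIB1 (2.98% of all genes did). In both arms 2 rose, DUSP1 and PLK2 (1.18%), while 27 passed 2-fold in neither (87.1%). Of 13 ERBB receptors and ligands the difference was called higher for 5 and lower for 3 (25.5% and 24.1% of all genes), with a median of 0.04. ERBB2, the partner of EGFR, changed by -0.17 and -2.20, a difference of 2.03 ± 0.12. HBEGF, a ligand of EGFR, rose by 0.58 and 1.99. Regulators of lung epithelium also fell in EGFRsh but not in ERC4: NKX2-1, the lineage factor of lung adenocarcinoma (0.37 and -1.06), FOXA1 (0.16 and -1.36) and RBM47, an RNA-binding protein (0.08 and -2.41).

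Mesenchymal and matrix genes were among the 413 that rose 2-fold in EGFRsh only. Of 32 mesenchymal cytoskeleton and adhesion genes, 9 rose in EGFRsh only (3.45% of all genes did) and 4 rose alike. Another 2, CSRP2 and CALD1, rose in ERC4 only, and 2, NT5E and ENG, fell in ERC4 and rose in EGFRsh. Of 47 matrix genes, 15 rose in EGFRsh only. EMP3, a membrane protein, lay at 7.18, 7.02 and 7.05 in parental and 7.86, 7.80 and 7.71 in ERC4, and at 5.91, 6.23 and 6.60 in NT and 11.40, 11.39 and 11.41 in EGFRsh. Its 35.6-fold rise in EGFRsh and 1.63-fold rise in ERC4 differed by -4.45 ± 0.18 (adjusted p = 1.3e-10). LGALS1, a lectin of mesenchymal cells, went from 9.69, 9.66 and 9.74 to 8.94, 9.11 and 9.0 in ERC4 and from 9.57, 9.51 and 9.82 to 13.38, 13.26 and 13.26 in EGFRsh. The difference was -4.35 ± 0.12. TAGLN, an actin binder, rose by 0.79 and 5.67, and SPARC, a matrix protein, changed by -0.34 and 4.85, both below the readable level in the ERC4 arm.

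Some TGF-beta and WNT genes also rose in EGFRsh only. TGFB1, the TGF-beta1 ligand, lay at 6.79, 7.13 and 6.98 in parental and 6.42, 6.23 and 6.40 in ERC4, and at 7.89, 7.90 and 8.21 in NT and 10.47, 10.39 and 10.39 in EGFRsh. It fell 1.54-fold and rose 5.33-fold, a difference of -3.03 ± 0.14 (adjusted p = 6.5e-10). Of 25 TGF-beta genes, 6 rose in EGFRsh only (3.45% of all genes did) and 2 in both (1.18%). Those 2 were TGFB2 (1.36 and 2.24, with a dim probe set at -0.47 in ERC4) and SMAD7, an inhibitor of the pathway (1.06 and 2.06). For SMAD3, placed in EGFRsh only, the probe sets disagreed, since another one gave 0.96 and -0.49. Of 30 WNT genes, 7 rose in EGFRsh only (3.45% of all genes did), led by the receptor FZD7 (0.11 and 4.86). All 7 were below the readable level in the ERC4 arm. Besides ZEB1, 4 of 12 transcription factors of the epithelial-mesenchymal transition rose in EGFRsh only, against 3.45% of all genes. They were ZEB2 (-0.11 and 2.87), SNAI2 (0.28 and 2.59), SOX9 (-0.35 and 1.20) and TCF4 (-0.19 and 1.01), all dim in the parental and ERC4 arrays. Of 13 keratins, KRT19 and KRT16 fell in both arms (0.894% of all genes did) and KRT15, KRT8, KRT7 and KRT18 fell 2-fold in EGFRsh only (2.98%). KRT8 fell by 0.94 and 2.11, KRT18 by 0.80 and 1.85 and KRT7 by 0.80 and 1.89, called in both arms. For KRT7 the difference of 1.09 turned to -0.12 over the mean of its probe sets.

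**Figure D3:**
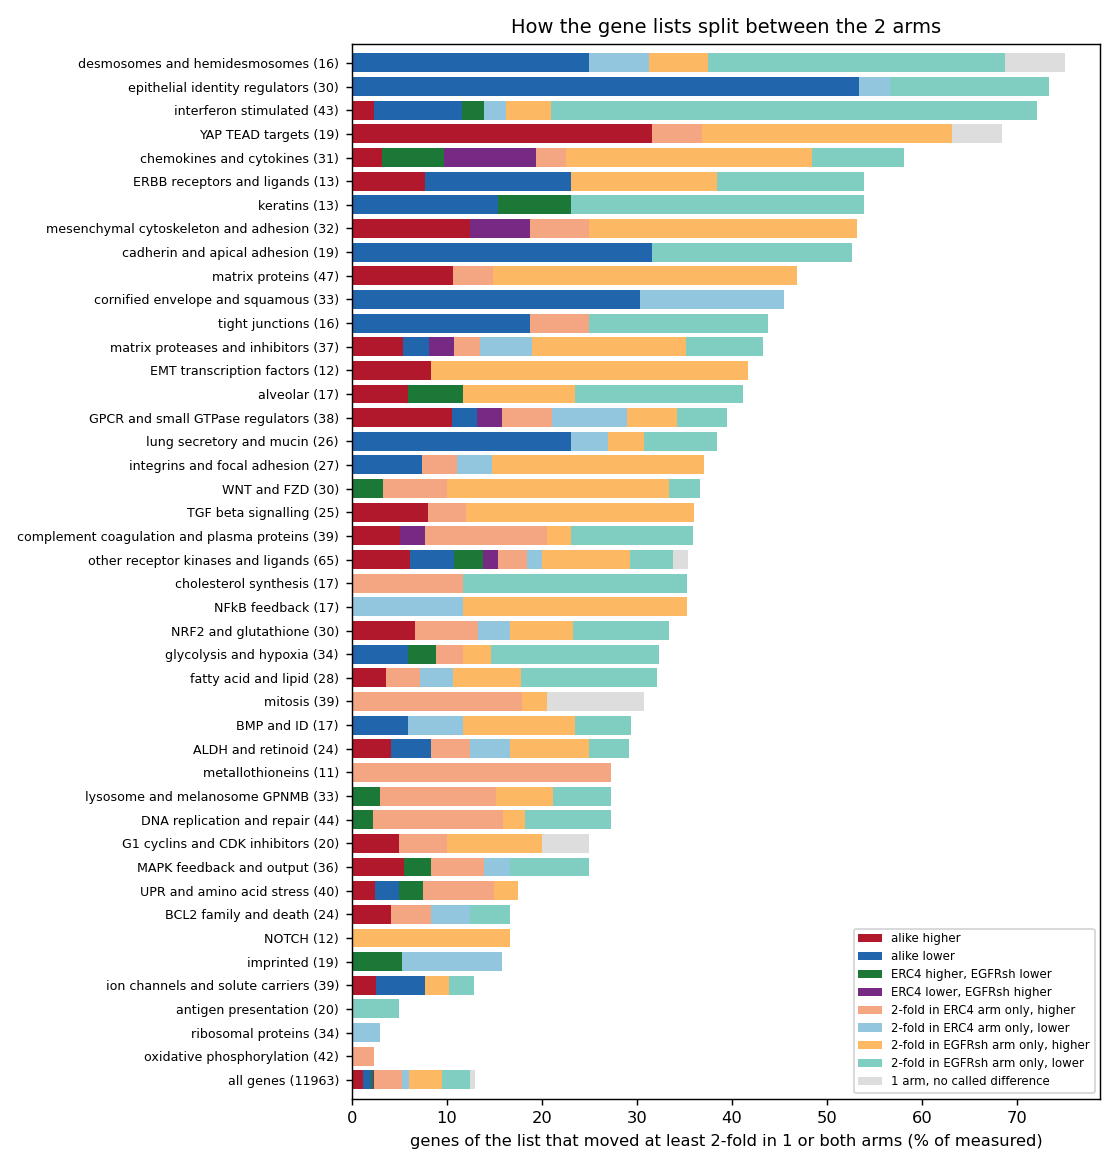
Share of the measured genes of each list that passed 2-fold in 1 or both arms, split by class, with the number measured in parentheses and all genes in the lowest bar. The blue of genes that fell alike fills more than the other colours in the epithelial identity list (16 of 30), and the teal of genes that fell only in EGFRsh in the interferon list (22 of 43). The lists were chosen with earlier results of these data known.

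Set against each other by median, the lists parted in both directions. The median difference of effects was high for interferon genes (1.32), epithelial identity (0.70), DNA replication (0.63), keratins (0.56) and cholesterol synthesis (0.49). It was low for the mesenchymal cytoskeleton (-0.76), TGF-beta (-0.56), matrix proteins (-0.52) and the EMT factors (-0.51). Over all genes it was -0.03. The order depended on the scaling. After quantile normalization the median was 0.31 for cholesterol synthesis and -0.66 for NF-kB feedback, below the -0.52 for TGF-beta. For cadherin and apical adhesion it was 0.49 and fell to 0.16 when the first set was stretched to match the other. These medians come from different patterns of the arms. The epithelial list had low medians in both arms, the interferon list in EGFRsh with ERC4 near 0, and the matrix list had a median of 0.71 in EGFRsh and -0.09 in ERC4. Oxidative phosphorylation genes passed 2-fold in 1 case of 42. Yet their difference was called lower in 22 and higher in 6 (24.1% and 25.5% of all genes), with medians of 0.17 in ERC4 and 0.42 in EGFRsh. Ribosomal protein genes had medians of -0.03 and 0.09, with 1 of 34 past 2-fold.

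**Figure D4:**
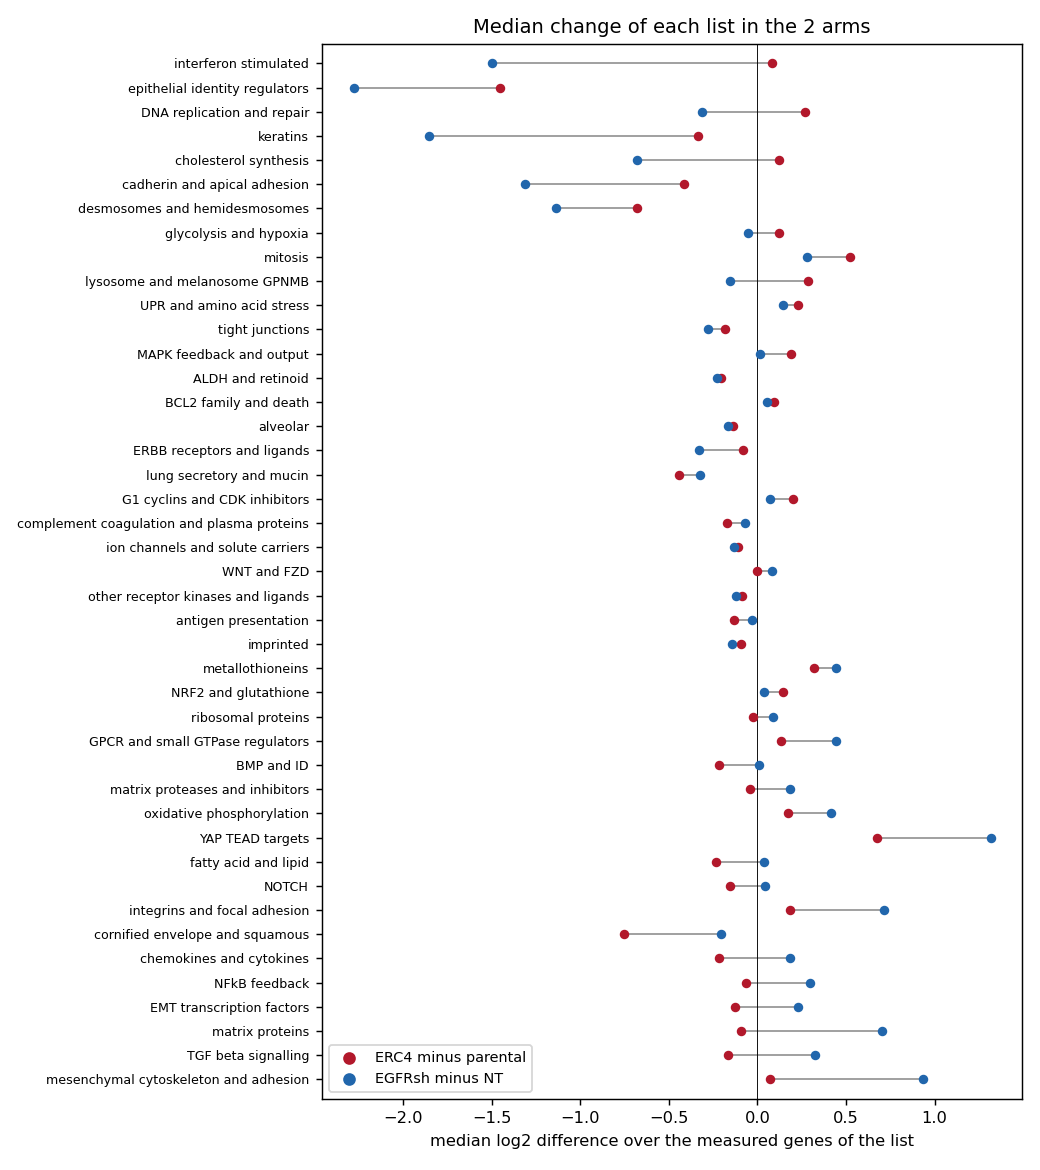
Median log2 difference over the measured genes of each list in ERC4 minus parental (red) and EGFRsh minus NT (blue), sorted by the median difference of effects. Interferon genes have medians of 0.08 and -1.496, at the top, and mesenchymal cytoskeleton and adhesion genes 0.07 and 0.94, at the bottom.

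Some of the 1-arm genes were neighbours on a chromosome. In runs of 25 readable genes in RefSeq order, the highest median in the ERC4 arm was on chromosome 11 from THAP12 to MRE11, at 1.42, with 18 of 25 genes at least 2-fold up. The same genes had a median of 0.08 in EGFRsh and none was 2-fold up there, and 17 of the 18 were of the class that rose in ERC4 only. In THAP12 the changes were 1.66 and 0.38, in CHORDC1, a chaperone partner, 2.34 and 0.52 and in MRE11, a DNA break repair nuclease, 1.69 and -0.05. Over all readable genes the ERC4 arm had a median of 0.13. The 2nd highest run of that arm was on chromosome 4 from PCDH7 to TMEM165, with a median of 0.87 and 8 of 25 genes up. UGDH and PCDH7, named above as single genes, were among the 8. In EGFRsh the genes of this run had a median of 0.10 and 2 were 2-fold up. In the EGFRsh arm the highest run was on chromosome X from MOSPD2 to SRPX, with a median of 1.32 and 16 of 25 genes up, POLA1 among them. In ERC4 these genes had a median of 0.48 and 4 were 2-fold up. An overlapping run on chromosome X, from TBL1X to PRDX4, ranked 3rd in the ERC4 arm. Its median was 0.74 there with 8 genes up, and 0.64 in EGFRsh with 9 up, so part of this rise was shared by the arms. SRPX, a secreted matrix protein, changed by -0.03 and 4.28. The lowest run was also on chromosome X, from RTL8A to IRAK1, with a median of -0.78 and 11 genes down, against 0.10 in ERC4. The lowest run of the ERC4 arm, on chromosome 1 from PSMD4 to NPR1, had a median of -0.57 and held the SPRR and S100 clusters, with 9 genes down. These genes were picked after their values were seen, and no copy number was measured on these arrays.

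**Figure D5:**
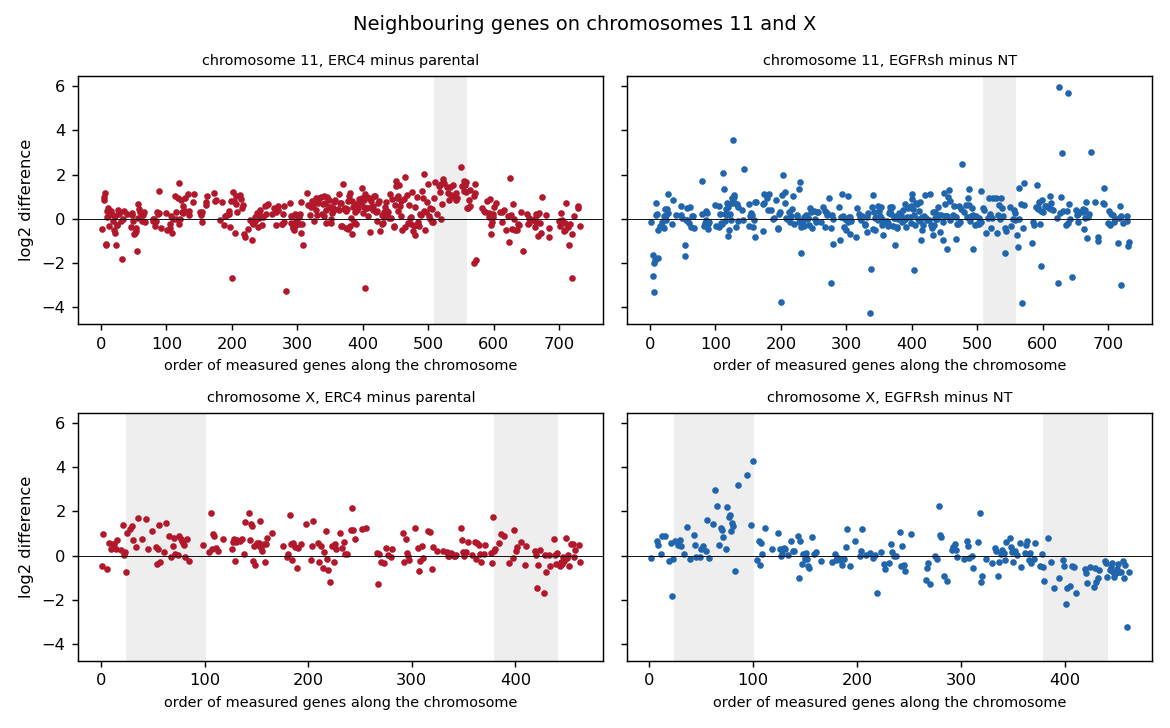
Log2 difference of readable genes in their order along chromosomes 11 and X, in each arm, with grey bands over the runs of 25 genes with extreme medians in either arm. On chromosome 11 the band has a median of 1.42 in ERC4 and 0.08 in EGFRsh, and on chromosome X the left bands include a run with a median of 1.32 in EGFRsh.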

How the data were processed

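Expression was measured on 12 microarrays, 3 in each of 4 groups. The deposited values are linear intensities. The submitters' processing notes name RMA, whose version was not given in the sources used here. Values were taken to log2(value + 1). Of 22277 probe sets, those with 1 symbol (19070) were used, and the probe set with the highest mean stood for each of 11963 genes. All 12 arrays were fitted in 1 model with limma 3.58.1 in R 4.3.3 (8 residual degrees of freedom), with Benjamini-Hochberg adjustment over all genes and a threshold of 0.05. The fit was tested on simulated data. Same-numbered replicates did not deviate together (r of -0.124 to 0.068 within the arms), so no block was used.

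Named genes were EGFR, every gene of both opposite classes, and the leaders of the other classes. Those were 12 for each alike direction by the smaller change, and 10 for each 1-arm direction by the difference, with arrays that did not overlap, no conflicting probe set and, for 1-arm genes, a readable other arm. Up to 6 members of each of 46 lists per class, and the genes nearest the 2-fold line, were added. Members and lists were chosen with earlier results of these data known. Alternatives covered normalization, pseudocount, probe set choice, thresholds, variance models and left-out arrays. Array number limits the precision.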

Additional observations from a re-analysis of the deposited data

Results flagged for a closer look

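The array controls gave signals outside the gene comparisons. Hybridisation controls were higher in EGFRsh than in NT by 0.547 on the log2 scale. In the ERC4 arm they changed by -1.56, a larger shift in the other direction. The 3′ minus 5′ signal was higher in EGFRsh than in NT by 0.866 for ACTB and by 0.349 for GAPDH. The part of these control signals in either arm was not tested.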

How the results depend on the processing

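With the first set stretched to the spread of the other, the class that rose in ERC4 and fell in EGFRsh held 39 genes, the ERC4-only classes 570 higher and 171 lower, and 1150 genes passed 2-fold in ERC4. A pseudocount of 16 gave 6 genes lower in ERC4 and higher in EGFRsh, and 60 lower in ERC4 only. Genes readable in both sets gave 45 lower in ERC4 only, 191 higher in EGFRsh only, 1276 differences lower in the ERC4 arm and 690 genes past 2-fold in EGFRsh, with fewer genes tested. The mean of probe sets gave 5 genes lower in ERC4 and higher in EGFRsh. A line of 1.5-fold gave, in the order alike higher, alike lower, both opposite classes, ERC4 only and EGFRsh only, 481, 263, 133, 42, 772, 404, 770 and 654. A line of 3-fold gave 34, 54, 5, 2, 73, 21, 195 and 170. The share of called differences that were higher was 51.4%, 47.7% with quantile normalization, 59.4% with median centring and 51.7% when stretched.

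Without 1 replicate, the classes ranged over 135 to 146 alike higher, 106 to 112 alike lower, 19 to 24 and 9 to 11 opposite, 321 to 386 and 89 to 110 in ERC4 only, and 391 to 420 and 349 to 358 in EGFRsh only. Differences ranged over 2869 to 3112 higher and 2578 to 2890 lower, and the arms over 725 to 812 and 1065 to 1099. The numbers do not pair the samples, and with the replicate block the counts were 141, 107, 23, 10, 346, 92, 413 and 356.

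Differences reversed when stretched for VIM (0.17), MUC1 (-0.047), ST14 (-0.19) and CCN1 (0.12). With a pseudocount of 16 they did for SH3YL1 (0.17) and RAB25 (0.0085), and over the mean of probe sets for MUC1 (-0.002), KRT7 (-0.12), SMAD3 (0.32) and ID4 (0.14). The ERC4 change reversed for PLSCR1 (0.033, mean of probe sets), BAMBI (-0.017) and PFKFB3 (-0.022, both with quantile normalization), and the EGFRsh change for TYMS (-0.19) and CCNE2 (-0.085), both over the mean of probe sets. The cause was not tested. Signal over background limits the 1-arm classes, since the other arm was below the readable level for 31, 41, 223 and 106 of their genes.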
